A study of Mus musculus with 25 samples.

Results

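The type I interferon response genes are a list of 38 mouse genes that cells switch on after type I interferon, chosen by name, and 36 of them were analysed among the 13641 genes of the count table. Mx1 and Mx2 are not analysed here. All 36 passed the filter on low counts, as did 13630 genes in all. The cells were haematopoietic stem cells (HSC) sorted as Lin−Sca1+cKit+CD48−CD150+ from bone marrow, in recipients of transplanted marrow. Tamoxifen was given 16 weeks after engraftment to switch on a human JAK2 construct with the V617F mutation, the driver of most polycythaemia vera. Donors of 4 genotypes were compared. Il1bKO is SclCre;V617F;IL-1b-/-GFP, a mutant that lacks the cytokine gene Il1b. Il1r1KO is SclCre;V617F;IL-1R1-/-GFP, a mutant that lacks the IL-1 receptor gene. VF is SclCre;V617F;GFP and WT is SclCre;GFP, so the Scl-driven tamoxifen-inducible Cre and the GFP are in every genotype's label. Each genotype had 4 libraries at 2 weeks after tamoxifen, and Il1bKO, Il1r1KO and VF had 3 more at 4 weeks, which gives 25 libraries in 7 groups. The labels place the times in separate processing batches, so every comparison below was made within a time. The labels do not say whether the libraries of a group are separate recipients or pools, and p-values measure the spread between these libraries.

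Type I interferons are secreted cytokines that bind a receptor made of Ifnar1 and Ifnar2 and act through the kinases Jak1 and Tyk2. Factors that these kinases activate, with Irf9 as a DNA-binding partner, bind the interferon-stimulated response element in promoters and switch on genes that sense, degrade or block viral RNA. Irf7, itself induced, drives more interferon and so closes a feedback loop, whereas Usp18 damps the receptor. Stem cells are known to hold part of this programme on without infection, and interferon alpha is a treatment of JAK2-mutant disease.

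Library totals were 22010942 to 40233914 counts, and values are given as CPM, counts scaled to the effective library size, which does not correct for gene length. All 12 stem cell markers examined were detected, with summed levels of 2083 to 4503 CPM. The human JAK2 construct stood at 65.8 to 125 CPM (exons 3 to 12) in the Il1bKO libraries, 139.8 to 218 in Il1r1KO and 99.7 to 130.4 in VF, against 0.0346 to 0.733 in WT. Il1b had 0 reads in all 7 Il1bKO libraries. Il1r1 reads in libraries labelled Il1r1KO (9.79 to 31.1 CPM) overlapped those of VF (8.59 to 24.3 CPM), so gene-level reads do not check that label. CreERT2 reads were at 0.0365 CPM or 0 in the 4 libraries labelled WT, and their pEGFP reads were 998 and 518 CPM in WT_2w 1 and 2, against 3.03 and 49.3 CPM in WT_2w 3 and 4. The Il1r1KO libraries also lay above VF in pEGFP (868 to 1473 CPM, against 462 to 541), and the Il1bKO libraries above VF in CreERT2 (445 to 828 CPM, against 195 to 388). In exons 13 to 25 of the JAK2 construct the Il1r1KO libraries were above VF as well (81.6 to 114.9 CPM, against 39.1 to 60.8). Because each knockout differs from VF with no overlap in at least 1 construct, gene loss and construct level cannot be told apart. Nor can mutant JAK2 and CreERT2 level in VF against WT, as their CreERT2 reads did not overlap. In bulk RNA, fewer cells of a type and less RNA per cell cannot be told apart either. Libraries are named by group and replicate number. VF_4w 6, Il1bKO_4w 5 and Il1r1KO_4w 5 stand apart. The first is described below, as is VF_4w 5, the lowest 4-week library over the members. Il1bKO_4w 5 had 11871 genes with reads, against 13039 to 13491 in the others, and held the highest value of 17.5% and the lowest of 24.9% of all genes. Il1r1KO_4w 5 held the highest value of 17.3% and the lowest of 11.7% of all genes.

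The interferon-stimulated response element can be read in the promoters of many members. Windows of 300 bases around the annotated start were held for 28 of the 36 members in RefSeq (GRCm38.p6), and the core of the interferon-stimulated response element was searched on both strands as a pair of GAAA with 2 free bases between them, which reads as a pair of TTTC on the other strand. It was in 13 of these 28 windows (46.4%), against 1079 of all 27025 windows (3.99%). The gamma-activated site, searched as the palindrome TTCNNNGAA, was in 6 of the 28 (21.4%), against 2582 of 27025 (9.55%). The bases from 200 to 51 before the start are printed 5′ to 3′ on the gene's strand, with matches to the response element core in capitals. The 5 shown are Ifit1, Ifit3 and Ifit3b, where neighbouring genes share the motif, Isg15, where matches overlap, and Rsad2, an effector whose value in every library is given below.
Isg15, chr4:156200869-156201018, minus strand: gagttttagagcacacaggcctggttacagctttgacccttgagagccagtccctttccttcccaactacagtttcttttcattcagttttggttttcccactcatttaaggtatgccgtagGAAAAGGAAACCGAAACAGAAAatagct
Ifit1, chr19:34640689-34640838, plus strand: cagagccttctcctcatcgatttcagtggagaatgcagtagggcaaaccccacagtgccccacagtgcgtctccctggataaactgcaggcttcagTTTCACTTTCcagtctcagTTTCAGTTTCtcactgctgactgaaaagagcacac
Ifit3, chr19:34583329-34583478, plus strand: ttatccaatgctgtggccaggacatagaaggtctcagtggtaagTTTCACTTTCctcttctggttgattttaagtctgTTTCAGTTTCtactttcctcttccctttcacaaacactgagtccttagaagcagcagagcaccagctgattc
Ifit3b, chr19:34607757-34607906, plus strand: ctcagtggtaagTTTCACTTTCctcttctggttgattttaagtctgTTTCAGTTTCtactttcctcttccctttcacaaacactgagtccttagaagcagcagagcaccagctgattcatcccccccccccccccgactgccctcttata
Rsad2, chr12:26456503-26456652, minus strand: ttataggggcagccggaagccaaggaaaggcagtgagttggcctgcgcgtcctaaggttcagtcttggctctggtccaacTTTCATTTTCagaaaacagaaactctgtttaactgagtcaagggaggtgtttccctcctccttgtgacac

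Isg15 holds 3 overlapping matches, which begin 78, 72 and 66 bases before the start. Ifit1, Ifit3 and Ifit3b hold 2 matches each, and the windows of Ifit3 and Ifit3b are the same at 201 of 268 bases when shifted by 32 bases, with both matches at the same shift. Matches before the start were also found for Bst2, Oas1a, Oas3 and Trim30a. Those of Ifih1, Ddx58, Ifitm3 and Eif2ak2 lie within the 50 bases from the start. A match is a run of letters, and no binding was measured here. Irf7, Ifit2 and Xaf1 are among the members whose windows hold no match to the core.

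The stem cells of every genotype carried most of this programme as transcripts. Per kilobase of exon, 27 of the 36 members were above the median of all genes (8.26 CPM per kilobase), and the median of the members was 14.6. Ifitm3, a membrane protein that blocks viral entry, had the highest level at 903 CPM per kilobase, with a range over libraries of 569 to 1430. Next were Ifi27 (139), Lgals3bp (109), which encodes a secreted glycoprotein, Bst2 (84.2) and Ifi35 (50.9 CPM per kilobase). Ifitm3 did not overlap Ifi27 in its range over libraries, whereas Ifi27, Lgals3bp, Bst2 and Ifi35 each overlapped the next. The lowest were Parp14 (4.47), Oasl1 (4.14), Ifit3 (3.01) and Ifit3b (1.12 CPM per kilobase). Ifit3 and Ifit3b had 0 reads in Il1bKO_4w 5, which at its depth allows up to 0.0753 CPM each, and reads in all 24 other libraries. They are close copies, so reads may be split or lost between them, as for the Oas1 cluster, the Trim30 cluster and Ifi27 with its neighbours.

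**Figure D1:**
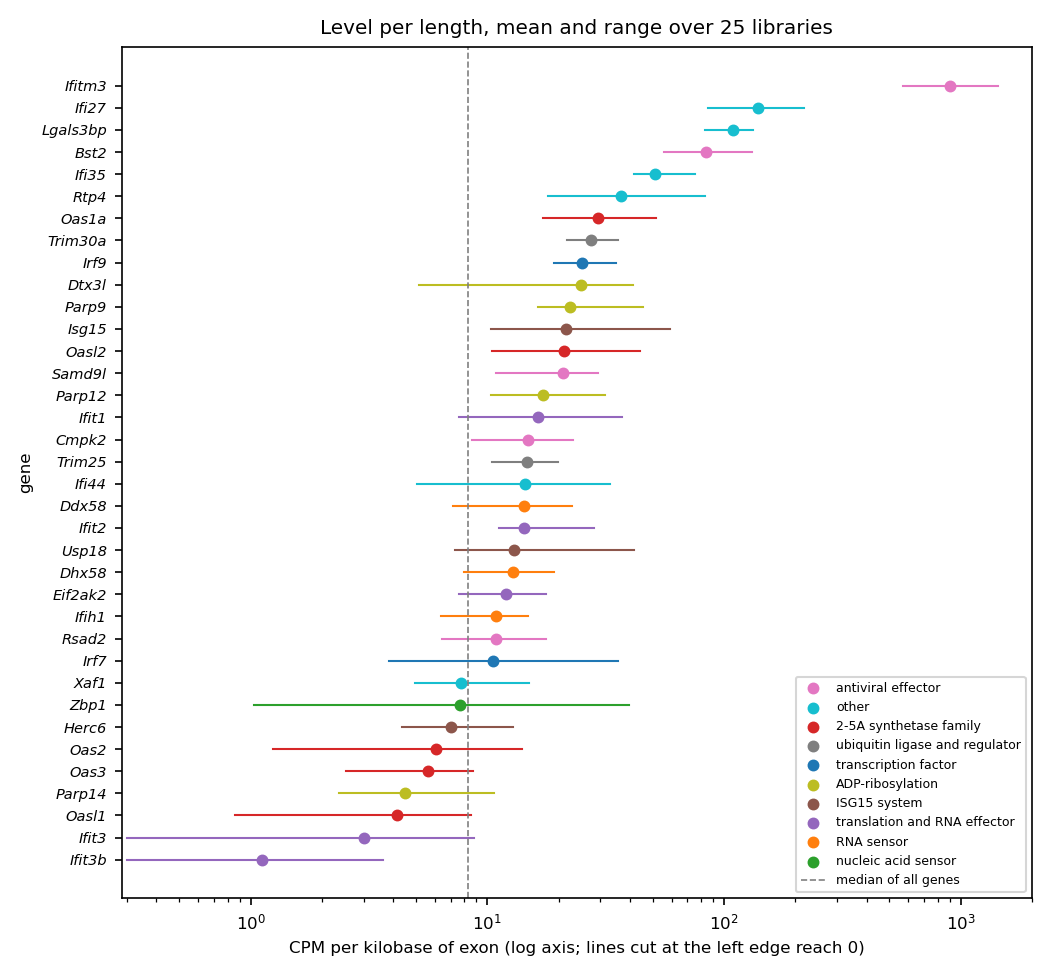
Mean level per length of the 36 genes over 25 libraries, in CPM per kilobase of exon on a log axis, with a line from the lowest to the highest library and colours for the gene's role. Ifitm3 stands at 903 and Ifit3b at 1.12 CPM per kilobase, and the dashed line is the median of all genes, 8.26.

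No member passed an adjusted p of 0.05 in any of 12 comparisons in edgeR's quasi-likelihood fit of all genes. At 2 weeks, VF stem cells differed from those labelled WT by a median over members of 0.11 on the log2 scale, with 27 members higher and 9 lower, 0 of them at an unadjusted p under 0.05. Of all genes tested, 0.00734% were called, 1.06% had such a p higher and 1.21% lower, and the median was 0.002. Leaving out 1 library at a time moved the members' median between 0.0003 (without WT_2w 4) and 0.23 (without WT_2w 2). Against VF, loss of Il1b gave a median of −0.11 at 2 weeks (9 higher, 27 lower, 0.00734% of all genes called) and −0.29 at 4 weeks (7 higher, 29 lower, 0.125% called). Loss of Il1r1 gave −0.07 at 2 weeks (13 higher, 23 lower, 0.0514% called) and −0.42 at 4 weeks (5 higher, 31 lower, 0.147% called). The comparisons of Il1bKO and Il1r1KO share their VF libraries. Medians of all genes were within 0.02 of 0 in these comparisons. Without VF_2w 2 the 2-week median of Il1r1KO was 0.05, and without VF_4w 6 the 4-week medians were 0.19 for Il1bKO and 0.13 for Il1r1KO.

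At an unadjusted p under 0.05, 6 members were lower in Il1bKO than in VF at 4 weeks: Zbp1, Ifit2, Herc6, Parp9, Parp14 and Xaf1 (16.7%, against 7.84% of all genes). In Il1r1KO 8 were lower: Irf7, Ddx58, Ifih1, Zbp1, Rsad2, Parp9, Parp14 and Ifi44 (22.2%, against 6.16% of all genes). No member was higher at such a p in either, against 6.88% and 6.54% of all genes. Without VF_4w 6 the lower count was 0 in each knockout, against 7.68% of all genes in Il1bKO and 7.66% in Il1r1KO. Without VF_4w 5 it was 18 in each, against 6.55% and 4.03% of all genes, and without VF_4w 7 it was 10 in each, against 6.8% and 5.54%. Without Il1bKO_4w 5 it was 3 in Il1bKO, against 5.86% of all genes. In Il1r1KO it was 4, 5 and 11 without Il1r1KO_4w 5, 6 and 7, against 6.06%, 5.37% and 7.42% of all genes. Fitting nothing but the compared groups, 0 members were lower at 4 weeks in Il1bKO and 2 in Il1r1KO, against 2.25% and 4.02% of all genes. At 2 weeks 0 members were lower in Il1bKO (0.814% of all genes) and 0 higher (0.55%). In Il1r1KO 2 were lower at 2 weeks, Samd9l and Trim30a (5.56%, against 1.64% of all genes), and 0 higher (1.52%). With the compared groups alone these were 5 lower and 3 higher, against 3.62% and 3.58% of all genes. Averaged over both times, the median was −0.18 for Il1bKO, with 33 members lower and 0.139% of all genes called, and −0.27 for Il1r1KO, with 32 lower and 0.169% called. There 4 members were lower at such a p in Il1bKO (11.1%, against 4.93% of all genes) and 7 in Il1r1KO (19.4%, against 5.61%), and 0 were higher, against 4.45% and 5.79%. Leaving out 1 library moved these counts between 0 (without VF_4w 6, 5.35% of all genes) and 14 (without VF_4w 5, 4.21%) in Il1bKO, and between 2 (7.05%) and 19 (3.69%) in Il1r1KO without the same libraries. With the compared groups alone the count in Il1bKO was 1, against 5.3% of all genes. DESeq2 called 1 member, Parp14, in Il1r1KO against VF at 4 weeks (2.78% of members, against 1.69% of all genes) and over both times (1.07% of all genes), and limma voom called 0 in each of the 12 comparisons. Il1bKO against Il1r1KO had a median of 0.06 (0.176% of all genes called). Il1bKO against WT at 2 weeks had 0.02 (0.044% called) and Il1r1KO against WT had 0.08 (0.0587% called). Whether the loss of Il1b acted differently at 4 and 2 weeks was tested as the difference of the within-time effects, with 0 members called (0.0147% of all genes). Ifit2, Herc6 and Parp9 were lower at an unadjusted p under 0.05, 3 of 36 (8.33%, against 4.7% of all genes), and 0 were higher (3.57%). Without VF_4w 6 this became 0 lower and 5 higher, against 4.76% and 3.5% of all genes, and without VF_4w 5 it became 7 lower, against 4.46%. For Il1r1 0 members were called (0% of all genes), and 0 were lower or higher at such a p, against 3.07% and 2.25% of all genes. Without VF_4w 5 the lower count for Il1r1 was 8, against 2.6% of all genes.

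**Figure D2:**
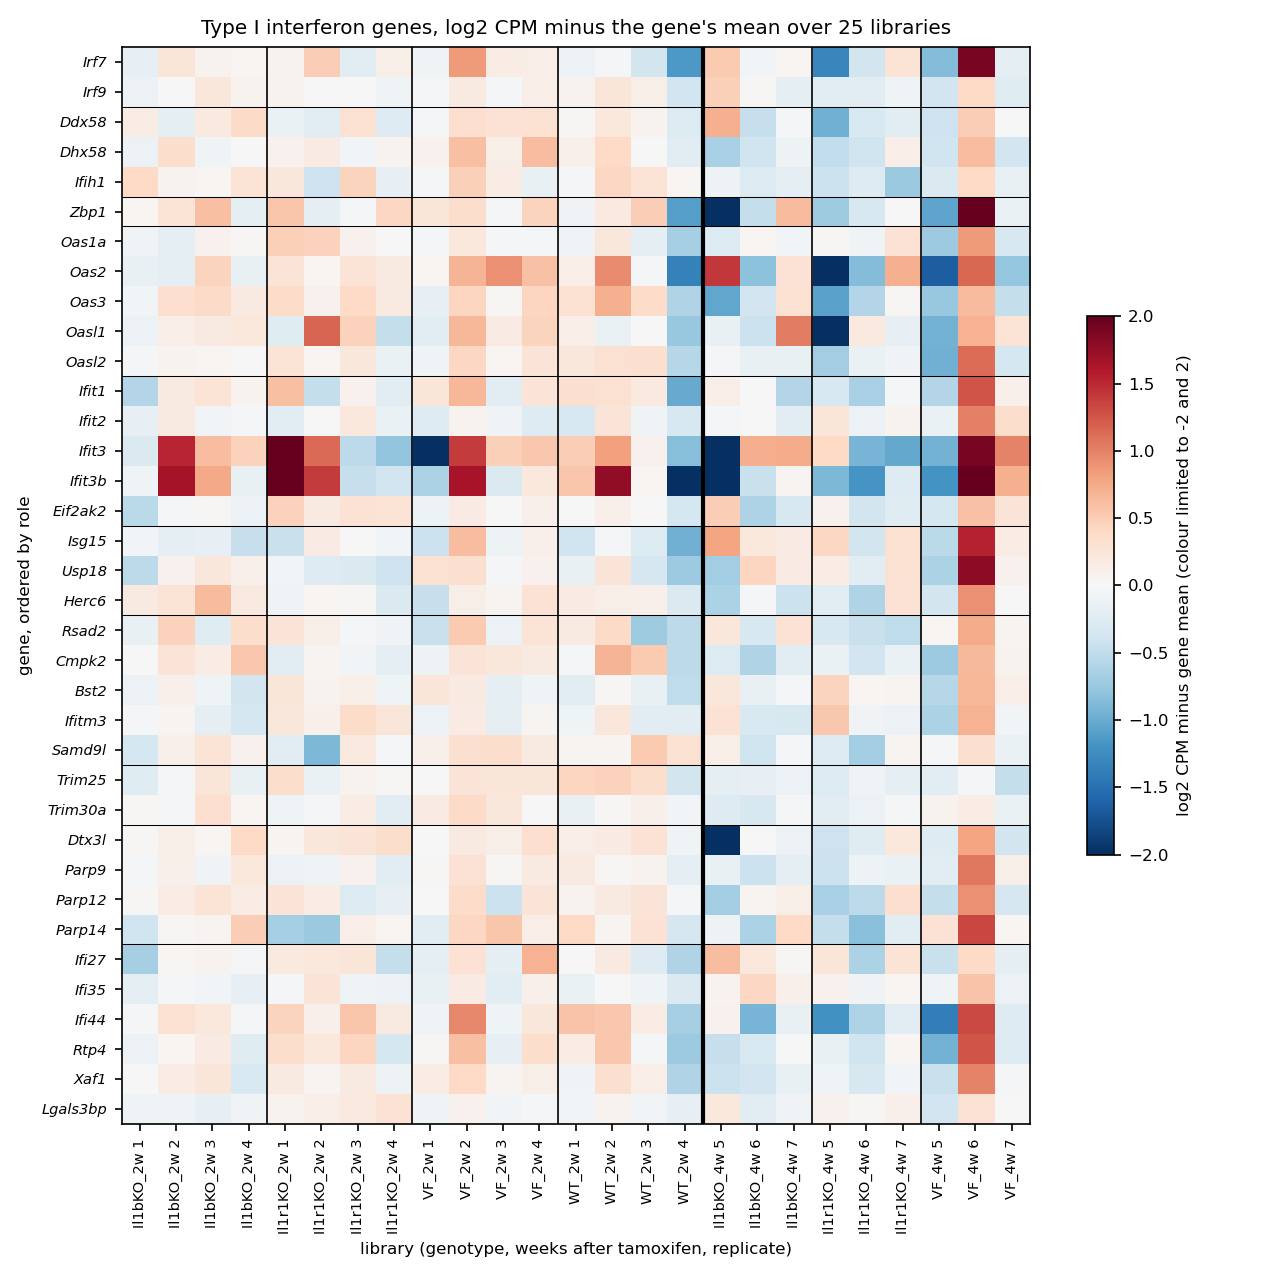
Log2 CPM of each of the 36 genes (rows, ordered by role) minus the gene's mean over the 25 libraries (columns, by group, with 2 weeks left of the thick line and 4 weeks right of it). The column of VF_4w 6 is red in 35 of 36 genes, and VF_4w 5, WT_2w 4 and Il1bKO_4w 5 hold the lowest value of 22.2%, 19.4% and 19.4% of them, against 4.17%, 1.36% and 24.9% of all genes.

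The interferon factor Irf7 (ENSMUSG00000025498, chr7:141262706-141266481, minus strand) had its highest level in VF_4w 6, as most members did. At 2 weeks it had 32.1, 42.5, 37.8 and 36.8 CPM in Il1bKO, 37.8, 50.8, 30.7 and 39.2 in Il1r1KO, 33.8, 65.3, 39.9 and 39.4 in VF and 33.2, 35.01, 27.97 and 16.2 in WT. At 4 weeks it had 51.8, 34.8 and 37.1 CPM in Il1bKO, 14.5, 27.96 and 43.3 in Il1r1KO and 19.6, 135 and 31.8 in VF. VF_4w 6 was the highest library of all 25, at 135 CPM against 65.3 CPM in the next, and WT_2w 4 and Il1r1KO_4w 5 were the lowest. VF exceeded WT by 0.67 on the log2 scale at 2 weeks (SE 0.41, 95% interval −0.19 to 1.52, edgeR adjusted p = 0.9998), with overlapping groups. At 4 weeks Irf7 differed from VF by −0.59 in Il1bKO (SE 0.48, edgeR adjusted p = 0.584) and by −1.12 in Il1r1KO (SE 0.48, edgeR adjusted p = 0.338). Without VF_4w 6 these became 0.68 and 0.16. Irf9, a DNA-binding factor of the response, stayed within 103 and 188 CPM in all libraries, with Il1bKO_4w 5 highest and WT_2w 4 lowest.

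Among sensors of viral nucleic acid, Zbp1 varied most between libraries and the helicases less. Zbp1 (ENSMUSG00000027514, chr2:173206612-173218923, minus strand), which senses Z-form nucleic acid and can start necroptosis, had 22.6, 26.5, 33.4 and 19.2 CPM in Il1bKO, 32.3, 19.2, 21.6 and 29.5 in Il1r1KO, 26.1, 28.04, 21.6 and 29.97 in VF and 20.9, 25.3, 31.1 and 10.2 in WT at 2 weeks. It had 3.64, 15.9 and 34.3 CPM in Il1bKO, 13.5, 17.6 and 22.2 in Il1r1KO and 10.6, 139.5 and 20.1 in VF at 4 weeks. The 4-week groups overlap, and the lowest library is Il1bKO_4w 5. Zbp1 was −1.66 (SE 0.68, edgeR adjusted p = 0.264) in Il1bKO and −1.67 (SE 0.68, adjusted p = 0.304) in Il1r1KO against VF at 4 weeks, and these became 0.22 and 0.21 without VF_4w 6. Dhx58 (ENSMUSG00000017830, chr11:100694884-100704271, minus strand), also LGP2, a regulator of RNA helicase sensing, had 37.3, 51.8, 38.2 and 40.3 CPM in Il1bKO, 43.2, 45.7, 39.1 and 42.8 in Il1r1KO, 43.1, 62.1, 44.2 and 62.5 in VF and 43.6, 53.8, 40.7 and 34.7 in WT at 2 weeks. Its values at 4 weeks were 25.96, 30.7 and 37.96 CPM in Il1bKO, 28.8, 30.8 and 44.7 in Il1r1KO and 30.8, 62.1 and 31.1 in VF. VF_2w 2, VF_2w 4 and VF_4w 6 were nearly equal at the top, and over both times Il1bKO minus VF was −0.36 (SE 0.16, edgeR adjusted p = 0.504), or −0.16 without VF_4w 6. Ddx58, or RIG-I, which senses short viral RNA, averaged 109 ± 45.8 CPM in Il1bKO, 71.4 ± 18.3 in Il1r1KO and 103 ± 32.1 in VF at 4 weeks (SD, n = 3 each). Ifih1, or MDA5, which senses long RNA, averaged 76.5 ± 4.51 CPM in Il1bKO, 63.1 ± 10.5 in Il1r1KO and 87.8 ± 23.2 in VF at 4 weeks (SD, n = 3 each). Ddx58 was highest in Il1bKO_4w 5 (160.3 CPM) and Ifih1 in VF_2w 2 (121 CPM), not in VF_4w 6.

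In the oligoadenylate synthetase family, the active enzymes make the messenger that activates RNase L. Oasl2 averaged 120.2 ± 5.82 CPM in Il1bKO, 107 ± 23.4 in Il1r1KO and 149.6 ± 115 in VF at 4 weeks (SD, n = 3 each). Oasl2 (66.7 to 281 CPM over all libraries) and Oas1a (32.4 to 97.1 CPM) were highest in VF_4w 6 and lowest in VF_4w 5. Oas3 (17.8 to 61.6 CPM), Oasl1 (2.23 to 22.3 CPM) and Oas2 (5.53 to 62.1 CPM) were all lowest in Il1r1KO_4w 5, and their highest libraries lay in 3 other groups. Oas2 gave the most positive fold change of the set in Il1bKO against VF at 4 weeks, 0.51 (SE 0.64, edgeR adjusted p = 0.751), with Il1bKO_4w 5 the highest of all libraries. Without VF_4w 6 it was 1.72 (edgeR adjusted p = 0.260).

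The Ifit proteins bind viral RNA and block its translation. Ifit1 (ENSMUSG00000034459, chr19:34640871-34650009, plus strand), which binds RNA that lacks cap methylation, had 27.2, 46.5, 49.2 and 42.8 CPM in Il1bKO, 62.4, 29.4, 43.3 and 34.8 in Il1r1KO, 48.4, 64.9, 35.00 and 49.1 in VF and 51.04, 50.3, 46.7 and 20.3 in WT at 2 weeks. Its 4-week values were 45.1, 40.8 and 27.4 CPM in Il1bKO, 32.9, 25.9 and 40.3 in Il1r1KO and 27.2, 98.2 and 43.7 in VF. WT_2w 4 was the lowest library and VF_4w 6 the highest. Ifit2 (ENSMUSG00000045932, chr19:34550694-34576419, plus strand), its partner, had 49.4, 62.7, 52.9 and 54.2 CPM in Il1bKO, 47.2, 54.8, 63.5 and 50.5 in Il1r1KO, 45.8, 57.8, 52.6 and 46.2 in VF and 44.2, 66.03, 52.6 and 44.2 in WT at 2 weeks. In the later batch it had 53.5, 55.1 and 47.7 CPM in Il1bKO, 65.2, 50.9 and 57.7 in Il1r1KO and 49.98, 111 and 70.2 in VF. All groups overlap, and the difference of Il1bKO from VF at 4 weeks was −0.56 (SE 0.21, edgeR adjusted p = 0.221), or −0.21 without VF_4w 6. Ifit3 (ENSMUSG00000074896, chr19:34583531-34588731, plus strand), known in humans to stabilise IFIT1, was low and scattered, with 2.93, 10.4, 5.51 and 4.93 CPM in Il1bKO, 15.3, 7.89, 2.47 and 2.04 in Il1r1KO, 0.299, 9.58, 5.02 and 5.20 in VF and 5.06, 6.34, 3.79 and 1.94 in WT at 2 weeks. At 4 weeks it had 0, 5.94 and 6.04 CPM in Il1bKO, 4.73, 1.84 and 1.72 in Il1r1KO and 1.82, 13.5 and 7.15 in VF. Its highest library was Il1r1KO_2w 1, and a second library of low level beside Il1bKO_4w 5 was VF_2w 1. Ifit3b ranged from 0 to 7.27 CPM and was highest in VF_4w 6. Eif2ak2, the kinase PKR that halts translation, was above every VF library in all 4 Il1r1KO libraries at 2 weeks, the only member so (1 of 36, against 1.92% of all genes). Its values were 82.9, 67.6, 73.5 and 72.3 CPM in Il1r1KO and 56.0, 67.2, 59.4 and 64.6 CPM in VF, with a difference of 0.26 (SE 0.20, edgeR adjusted p = 0.9999).

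Isg15 is a ubiquitin-like protein that is joined to other proteins, and Usp18 removes it. Isg15 (ENSMUSG00000035692, chr4:156199424-156200818, minus strand) had 14.7, 13.4, 13.6 and 11.1 CPM in Il1bKO, 11.2, 17.1, 15.2 and 14.7 in Il1r1KO, 11.4, 23.4, 14.2 and 16.5 in VF and 11.6, 15.03, 12.6 and 7.80 in WT at 2 weeks. Its values at 4 weeks were 26.4, 17.6 and 17.2 CPM in Il1bKO, 20.4, 11.8 and 18.8 in Il1r1KO and 10.4, 44.5 and 16.98 in VF. VF_4w 6 was the highest, followed by Il1bKO_4w 5 and VF_2w 2, and VF minus WT at 2 weeks was 0.48 (SE 0.33, 95% interval −0.21 to 1.17, edgeR adjusted p = 0.9998). Usp18 (ENSMUSG00000030107, chr6:121245906-121270917, plus strand) had 23.5, 35.8, 39.6 and 36.02 CPM in Il1bKO, 32.6, 28.1, 27.6 and 25.3 in Il1r1KO, 41.7, 42.2, 32.8 and 35.9 in VF and 30.6, 40.4, 26.7 and 20.4 in WT at 2 weeks. It had 20.7, 45.2 and 37.9 CPM in Il1bKO, 37.5, 28.9 and 41.5 in Il1r1KO and 21.8, 117 and 35.98 in VF at 4 weeks. At 2 weeks all 4 Il1r1KO libraries were below all 4 VF libraries, again 1 member of 36, against 2.09% of all genes, and the difference was −0.43 (SE 0.34, edgeR adjusted p = 0.9999). At 4 weeks VF held both the highest library and a low one, so the groups overlap. Herc6, the mouse ligase that attaches Isg15, ranged from 40.6 CPM in Il1bKO_4w 5 to 119 CPM in VF_4w 6.

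Of the antiviral effectors, Bst2 and Ifitm3 had both their lowest and their highest library in VF at 4 weeks. Rsad2 (ENSMUSG00000020641, chr12:26442746-26456452, minus strand), or viperin, makes a chain-terminating nucleotide, and had 41.3, 63.05, 38.4 and 57.99 CPM in Il1bKO, 54.4, 49.6, 44.6 and 43.4 in Il1r1KO, 33.5, 65.4, 42.2 and 55.4 in VF and 51.5, 59.8, 27.9 and 31.8 in WT at 2 weeks. At 4 weeks it had 53.2, 36.5 and 55.5 CPM in Il1bKO, 36.7, 33.6 and 32.03 in Il1r1KO and 46.9, 76.8 and 47.2 in VF. The 3 Il1r1KO libraries lay below the 3 VF libraries, with or without VF_4w 6, as was so for 2 of 36 members (5.56%) and 6.65% of all genes, while the 2-week groups overlap. The difference at 4 weeks was −0.74 (SE 0.28, 95% interval −1.32 to −0.16, edgeR adjusted p = 0.279) and −0.46 without VF_4w 6. Cmpk2, the adjoining gene, ranged from 35.99 to 96.1 CPM and was highest in WT_2w 2. Bst2 (ENSMUSG00000046718, chr8:71534255-71537456, minus strand), or tetherin, holds virions at the cell surface. It had 69.1, 80.2, 70.7 and 58.1 CPM in Il1bKO, 88.8, 78.5, 81.2 and 70.3 in Il1r1KO, 88.9, 84.7, 65.6 and 70.4 in VF and 64.6, 75.8, 67.5 and 52.4 in WT at 2 weeks. The later libraries had 87.8, 67.7 and 72.5 CPM in Il1bKO, 102, 76.4 and 77.5 in Il1r1KO and 50.6, 119 and 82.2 in VF. The VF libraries at 4 weeks were both the lowest and the highest of the series. Ifitm3 (ENSMUSG00000025492, chr7:141009586-141010770, minus strand) had 581, 623, 529 and 468 CPM in Il1bKO, 698, 642, 772 and 709 in Il1r1KO, 552, 669, 521 and 626 in VF and 563, 703, 516 and 511 in WT at 2 weeks. Its later values were 731, 488 and 481 CPM in Il1bKO, 868, 570.3 and 556 in Il1r1KO and 386, 969.9 and 577 in VF. VF_4w 5 and VF_4w 6 again bounded all other libraries. Samd9l (ENSMUSG00000047735, chr6:3372257-3399572, minus strand), a translation inhibitor and a gene of inherited marrow failure in humans, had 86.1, 118, 134 and 117 CPM in Il1bKO, 94.2, 59.3, 126 and 109 in Il1r1KO, 119, 137, 141 and 125 in VF and 114, 114, 159 and 136 in WT at 2 weeks. It had 120.3, 83.4 and 109 CPM in Il1bKO, 91.1, 69.1 and 115 in Il1r1KO and 109, 137 and 101 in VF at 4 weeks. Il1r1KO_2w 2 and Il1r1KO_4w 6 were the lowest, and Il1r1KO minus VF over both times was −0.38 (SE 0.15, edgeR adjusted p = 0.343).

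Trim30a (ENSMUSG00000030921, chr7:104409025-104465193, minus strand), a mouse regulator of inflammatory signalling, had 113, 109, 142 and 116 CPM in Il1bKO, 105, 109.9, 124 and 96.5 in Il1r1KO, 126, 146, 131 and 113 in VF and 102, 114, 121 and 108 in WT at 2 weeks. It had 93.6, 89.4 and 109 CPM in Il1bKO, 96.9, 104 and 109.6 in Il1r1KO and 117, 124 and 102 in VF at 4 weeks. It was the steadiest of the named members, and VF_4w 6 was not its highest library. VF minus WT at 2 weeks was 0.22 (SE 0.11, 95% interval −0.0072 to 0.44, edgeR adjusted p = 0.9998), the lowest p among members in that comparison. Trim25, the ligase that activates RIG-I, ranged from 60.2 to 115 CPM, highest in WT_2w 2.

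Among members, Parp9 gave the lowest p-value in Il1bKO and Parp14 in Il1r1KO, at 4 weeks and over both times. Parp14 (ENSMUSG00000034422, chr16:35832874-35871544, minus strand), a mono-ADP-ribosyltransferase that also modulates Stat6, had 29.7, 40.1, 40.8 and 55.4 CPM in Il1bKO, 24.7, 23.4, 43.1 and 40.3 in Il1r1KO, 33.4, 52.1, 57.7 and 42.9 in VF and 51.5, 41.00, 48.2 and 31.1 in WT at 2 weeks. At 4 weeks it had 36.7, 25.3 and 51.6 CPM in Il1bKO, 28.2, 21.9 and 33.8 in Il1r1KO and 48.05, 99.2 and 40.1 in VF. At 4 weeks the 3 Il1r1KO libraries were below the 3 VF libraries, with or without VF_4w 6, and at 2 weeks a pair of Il1r1KO libraries lay below all VF libraries while the others overlapped them. Parp14 and Rsad2 were the 2 members counted above with no overlap there. The difference was −1.16 at 4 weeks (SE 0.34, 95% interval −1.85 to −0.46, edgeR adjusted p = 0.160) and −0.83 over both times (SE 0.22, adjusted p = 0.147). DESeq2 gave adjusted p-values of 0.0428 and 0.0294 for the same differences. Without VF_4w 6 the edgeR value was −0.65 at 4 weeks and −0.58 over both times.

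Parp9 (ENSMUSG00000022906, chr16:35938470-35972605, plus strand), partner of the ubiquitin ligase Dtx3l, had 104, 114, 101 and 124 CPM in Il1bKO, 98.5, 101, 113 and 91.5 in Il1r1KO, 109, 130.2, 109 and 121 in VF and 120.5, 109, 112 and 93.8 in WT at 2 weeks. At 4 weeks it had 96.1, 79.7 and 94.04 CPM in Il1bKO, 79.4, 99.6 and 97.5 in Il1r1KO and 91.7, 222 and 116 in VF. All groups overlap, with VF_4w 6 far above the rest. At 4 weeks Parp9 differed from VF by −0.67 in Il1bKO (SE 0.20, edgeR adjusted p = 0.149) and by −0.64 in Il1r1KO (SE 0.20, adjusted p = 0.211), or −0.21 and −0.17 without VF_4w 6. Over both times the values were −0.37 (SE 0.13, edgeR adjusted p = 0.397) and −0.42 (SE 0.13, adjusted p = 0.2403), or −0.14 and −0.19 without VF_4w 6. Dtx3l lies on the opposite strand and overlaps Parp9 by 682 bases, and the libraries are unstranded, so reads from that stretch cannot be told apart. Irf7 overlaps Phrf1 by 45 bases and Irf9 overlaps Rnf31 by 123 bases. Dtx3l had 29.4 CPM in Il1bKO_4w 5, its lowest library, and 235 CPM in VF_4w 6, its highest. Parp12 ranged from 41.5 to 125 CPM, highest in VF_4w 6.

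Of the remaining members, Xaf1 (ENSMUSG00000040483, chr11:72301629-72313733, plus strand), a pro-apoptotic antagonist of XIAP, had 35.4, 39.1, 41.6 and 28.4 CPM in Il1bKO, 40.2, 36.5, 39.8 and 32.9 in Il1r1KO, 38.96, 46.8, 36.8 and 38.3 in VF and 33.6, 43.9, 38.9 and 23.2 in WT at 2 weeks. Its 4-week values were 26.2, 27.01 and 31.8 CPM in Il1bKO, 33.4, 28.3 and 33.98 in Il1r1KO and 26.02, 70.6 and 34.8 in VF. VF_4w 6 was the highest and WT_2w 4 the lowest, and Il1bKO minus VF over both times was −0.39 (SE 0.17, edgeR adjusted p = 0.498), or −0.13 without VF_4w 6. Ifi44 (31.0 to 201 CPM) and Rtp4 (38.4 to 177 CPM), a chaperone of opioid receptors, were both highest in VF_4w 6 and lowest in VF_4w 5. Ifi44 averaged 67.01 ± 22.3 CPM in Il1bKO, 52.4 ± 17.4 in Il1r1KO and 100.02 ± 89.5 in VF at 4 weeks (SD, n = 3 each), and Rtp4 averaged 62.96 ± 10.5 CPM in Il1bKO, 66.5 ± 10.1 in Il1r1KO and 92.4 ± 74.5 in VF at 4 weeks (SD, n = 3 each). Ifi27 (125 to 320.4 CPM) was highest in VF_2w 4, and Ifi35 (71.7 to 129.7 CPM) in VF_4w 6. Lgals3bp (236 to 376 CPM) was the steadiest of the 36 by the ratio of highest to lowest library, 1.60.

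**Figure D3:**
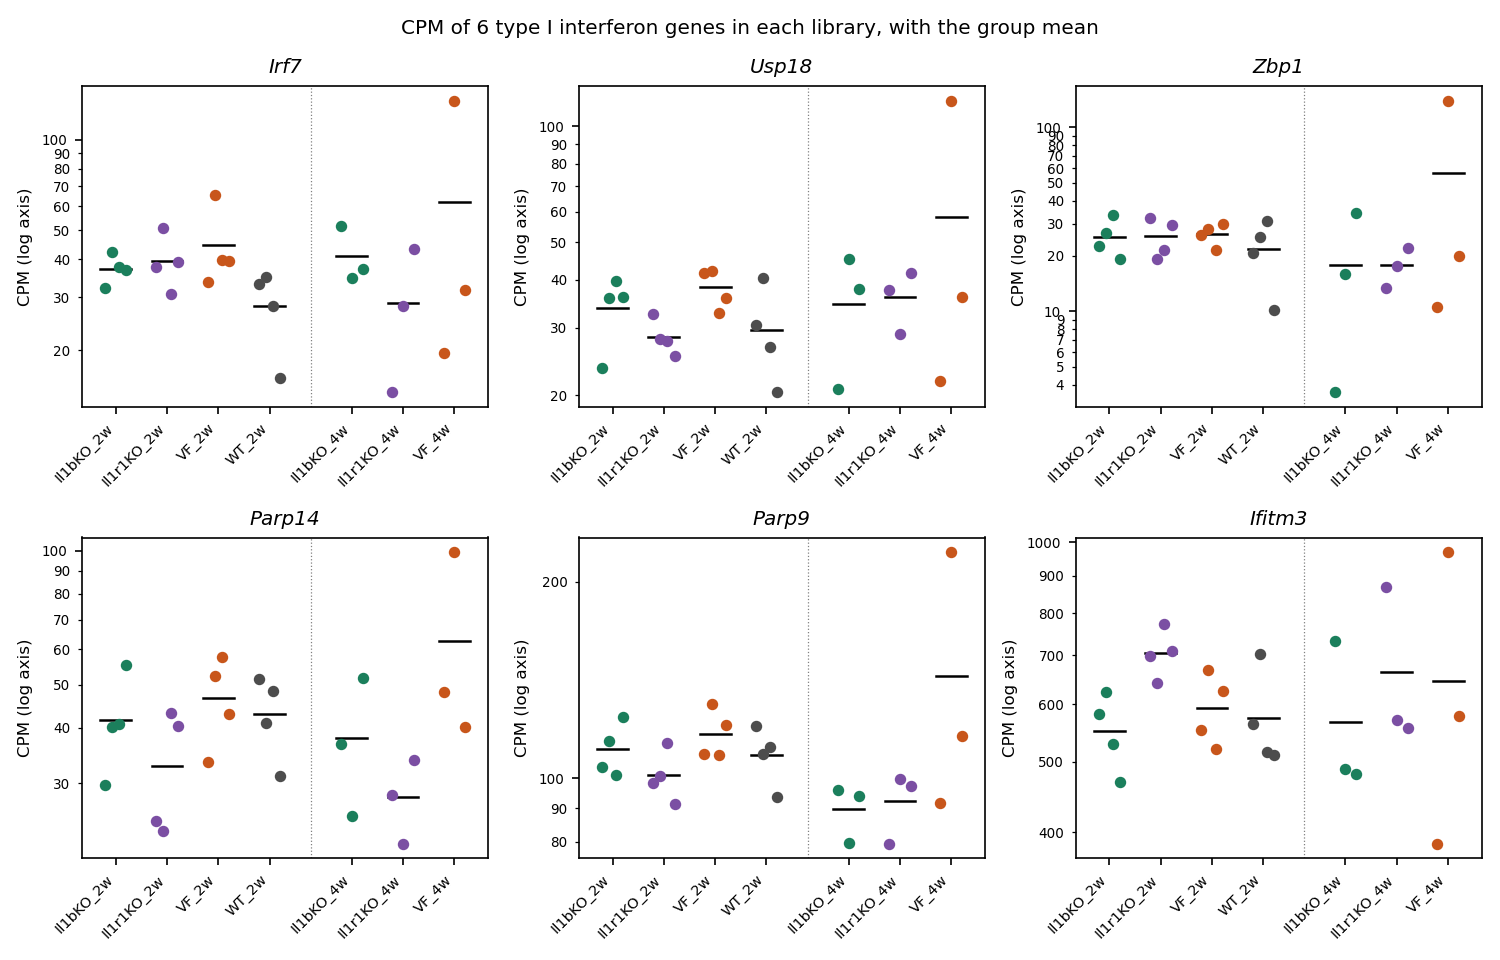
CPM of Irf7, Usp18, Zbp1, Parp14, Parp9 and Ifitm3 in each library (points, on log axes), with bars at the group means and the dotted line between 2 and 4 weeks. VF_4w 6 is the highest point in all 6 panels, and the Il1r1KO points for Parp14 at 4 weeks, 21.9 to 33.8 CPM, lie below the VF points.

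The 4-week levels of VF rest on 1 high library. VF_4w 6 had the highest value of 22 of the 36 members (61.1%), against 4.77% of all genes. All 36 members were above the mean of VF_4w 5 and VF_4w 7 there, against 46.4% of all genes. The ratio had a median of 2.12 over the members and 0.977 over all genes, and it was at least 2 in 21 members (58.3%, against 3.71% of all genes). For all genes, but not for the members, a small constant was added to both values of the ratio, which draws it towards 1. Dhx58 (2.006) is the member closest above the limit of 2. Zbp1 (9.08), Irf7 (5.24), Oas2 (4.96), Ifit3b (4.73), Ifi44 (4.07) and Usp18 (4.04) had the largest ratios, and Trim30a (1.13) the smallest. Per library, the median over members of log2 CPM minus the gene's mean was 0.82 in VF_4w 6, against −0.46 in VF_4w 5 and −0.09 in VF_4w 7. The next highest library was VF_2w 2 at 0.36, where all 36 members were above their own mean, and the lowest was WT_2w 4 at −0.52, where 2 were. The SD of this level was 0.66 over the 3 VF libraries at 4 weeks, against 0.11 to 0.33 in the other 6 groups.

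**Figure D4:**
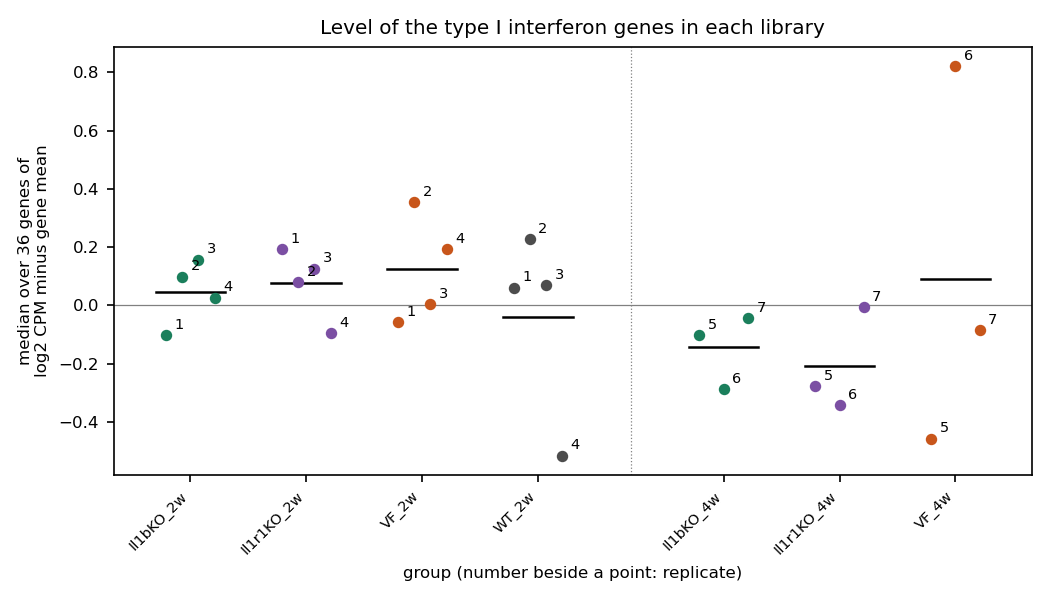
Median over the 36 genes of log2 CPM minus the gene's mean, for each library (points, numbered by replicate), with bars at the group means and the dotted line between 2 and 4 weeks. VF_4w 6 stands at 0.82. VF_4w 5, at −0.46, is the lowest of the 4-week libraries, and WT_2w 4 alone is lower, at −0.52. VF_4w 7 is at −0.09, within the range of the other groups.

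Without VF_4w 6 most members were higher in the knockouts than in VF at 4 weeks. VF was then VF_4w 5 and VF_4w 7, with levels over the members of −0.46 and −0.09 as defined above. The former is the lowest of the 4-week libraries. The group means of that level were −0.14 in Il1bKO and −0.21 in Il1r1KO at 4 weeks, below VF_4w 7. The members' median was 0.19 for Il1bKO minus VF at 4 weeks (24 higher, 12 lower) and 0.13 for Il1r1KO minus VF (23 higher, 13 lower). No member was lower at an unadjusted p under 0.05 in either, and 4 and 3 were higher, against 6.2% and 8.38% of all genes. edgeR called 0 members, 19 genes in all (0.139%) for Il1bKO and 139 (1.02%) for Il1r1KO, and the medians of all genes were −0.011 and 0.014. Over both times the medians were 0.04 for Il1bKO and 0.03 for Il1r1KO. The tests of time dependence moved to 0.33 for Il1b and 0.17 for Il1r1. The 13 members still lower in Il1r1KO included Ifit3 (−0.69), Parp14 (−0.65) and Rsad2 (−0.46). With Il1bKO_4w 5 also left out, a setting added after seeing the data, the 4-week medians were 0.18 and 0.13. Without VF_4w 5 instead, the 4-week medians were −0.56 for Il1bKO, where edgeR called Parp9 (−0.92, adjusted p = 0.0499) among 23 genes (0.169%), and −0.66 for Il1r1KO, where it called 0 members and 2 genes in all.

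**Figure D5:**
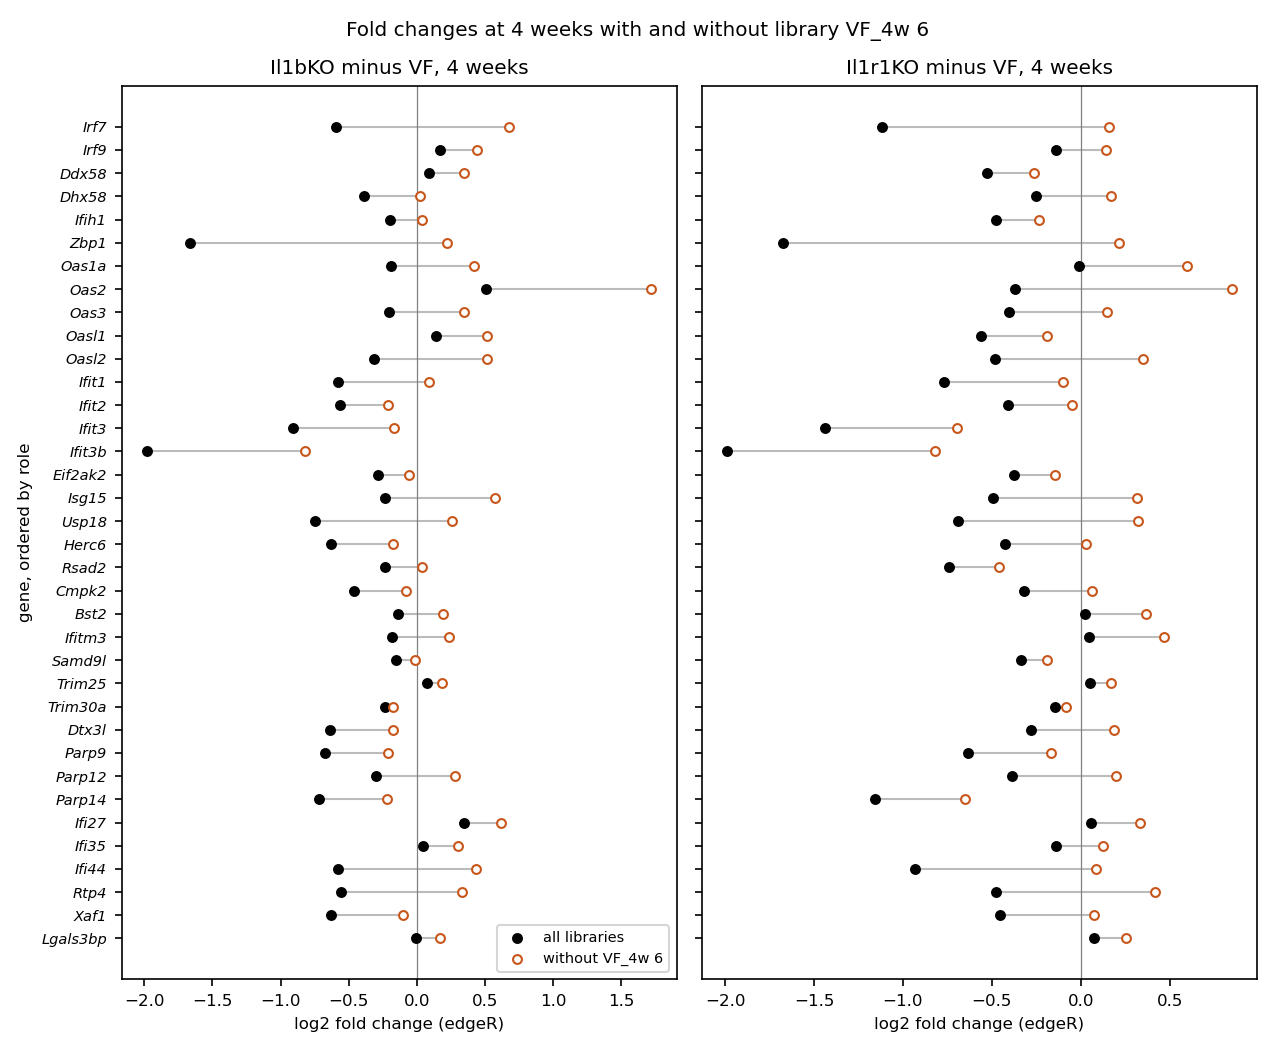
Log2 fold change of each of the 36 genes at 4 weeks in Il1bKO minus VF and Il1r1KO minus VF, from edgeR, with all libraries (filled) and without VF_4w 6 (open). With all libraries 29 and 31 of the 36 genes are below 0, and without that library 12 and 13 are.

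Other genes of the pathway, mainly interferon-stimulated ones, were also high in that library. Of 82 further genes listed, 70 were tested (those named below, other than Ly6a, were picked after their values were seen), and 0 of them passed an adjusted p of 0.05 in edgeR in any comparison. The 6 interferon ligand genes listed are not analysed here. In VF_4w 6, 27 of the 70 had their highest value of all libraries, with a median ratio to VF_4w 5 and 7 of 1.32, and the interferon-stimulated genes among them (38) had 1.60. The receptor genes Ifnar1 (1.03) and Ifnar2 (1.17) were close to 1. Iigp1, Igtp and Gbp2, GTPases known for their induction by interferon gamma, had ratios of 11.5, 8.19 and 5.04, with Iigp1 at 1520 CPM in VF_4w 6 against 70.5 to 248 in the other 24 libraries, Igtp at 909.7 against 95.9 to 209, and Gbp2 at 371 against 50.7 to 119.8. Ly6a, which encodes the Sca-1 antigen used in the sort and is itself interferon-inducible, had 163, 187, 204 and 138 CPM in Il1bKO, 247, 207, 157 and 142 in Il1r1KO, 170.5, 181, 198 and 197 in VF and 145, 179, 170.2 and 106 in WT at 2 weeks. It had 242, 129 and 163 CPM in Il1bKO, 174, 112 and 171 in Il1r1KO and 183, 444 and 152 in VF at 4 weeks, with VF_4w 6 the highest of all libraries.

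At an unadjusted p under 0.05, 14 of the 70 pathway genes were lower and 4 higher in Il1bKO than in VF at 4 weeks, against 7.84% and 6.88% of all genes. Without VF_4w 6 these were 4 lower and 5 higher, against 7.68% and 6.2%. In Il1r1KO 21 were lower and 2 higher, against 6.16% and 6.54% of all genes, among them Jak1, Stat2, Irf1 and Tbk1 on the lower side. Without VF_4w 6 these were 7 lower and 9 higher, against 7.66% and 8.38%. With the compared groups alone 3 were lower in Il1bKO and 8 in Il1r1KO, against 2.25% and 4.02% of all genes. At 2 weeks 1 was lower in Il1bKO and 2 in Il1r1KO, with Ifnar2 in both, against 0.814% and 1.64% of all genes. VF against WT had 2 higher, Rnaseh2c and Ifi27l2a, against 1.06% of all genes. The median log2 fold changes were −0.10 and −0.32 at 4 weeks for Il1bKO and Il1r1KO (0.066 and −0.043 without VF_4w 6), −0.05 and −0.06 at 2 weeks, and 0.05 for VF minus WT.

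Some markers of other cells were also high in VF_4w 6. The 6 tested of 12 macrophage and conventional dendritic markers summed to 1567 CPM there, against 104 to 519 CPM in the other 24 libraries. Cd74 (1089 CPM, against 38.7 to 385) and H2-Aa (469 CPM, against 23.7 to 169.9), both of antigen presentation by MHC class II and both inducible by interferon gamma, made up most of it. Cd68, the macrophage antigen, was at 5.71 CPM, near its lowest value of 5.54 in the others. The 7 megakaryocyte markers summed to 2869 CPM, against 692 to 1564, with Pf4 at 1073 and Itga2b at 690.2 CPM. For plasmacytoid dendritic cells, known for making type I interferon, 5 of 7 markers were tested and summed to 302 CPM, against 201 to 285, with Siglech, a defining marker, at 0 reads, as in 21 of the 25 libraries, and Irf8 at 26.7 CPM, against 2.89 to 17.1. The list also holds Bst2, a member, at 119 CPM against 50.6 to 102, so its sum is not separate from the members' levels. Tcf4 (156 CPM, against 104 to 202) and Ccr9 (0.0723 CPM, against 0 to 2.55) were within their ranges in the others. Neutrophil and monocyte markers (12 of 13 tested) were lowest there, 426 CPM against 504 to 909, with Mpo and Ctsg at 0 reads, as in 6 and 9 of the 25 libraries. B, T and NK, erythroid, mast cell and stromal sums were within the range of the others, as was the sum of the stem cell markers (2654 CPM), although Mllt3 was below its range in the others (75.7 CPM, against 98.002 to 525). Il1b was also highest there, 14.1 CPM from 391 reads, against 0 to 3.75 CPM elsewhere. Markers of other progenitors outside the sorted gate (3 of 4 tested) summed to 25.0 CPM in VF_4w 6, within the range of the others. Their sum was highest in VF_4w 5 (228 CPM), followed by WT_2w 4 (82.1 CPM). Flt3 made up most of it (220.3 and 78.1 CPM), while Cd48 was at 7.77 and 3.33 CPM there. The part of all these genes in the members' levels was not tested.

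The median pair of members was positively correlated over libraries. Their SD within groups had a median of 0.36 on the log2 scale, against 0.31 over all genes. The median Spearman correlation over the 630 pairs of members was 0.42 across the 25 libraries and 0.45 after each group's mean was subtracted, and members with all other genes had a median of 0.003 and −0.012. Without VF_4w 6 and WT_2w 4 it was 0.32 across 23 libraries, with 88 of the 630 pairs below 0, against 23 with all libraries. Oasl2 and Ifi44 were the closest pair (0.898). Oas3 (0.92), Rtp4 (0.898) and Oasl2 (0.87) followed the mean of the other members most closely, and Isg15 (0.19) and Bst2 (0.27) least, and without VF_4w 6 and WT_2w 4 the last 2 were at −0.045 and 0.061. Irf7 had a median of 0.43 with the other members and −0.02 with all other genes. Among genes outside the list, Mndal (0.89), Nod1 (0.78) and C2cd2l (0.75) were most like the members' mean over the 25 libraries. These are descriptions of points that share a library and its depth.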

How the data were processed

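Bulk RNA-seq libraries of sorted mouse HSC were made with the SMART-Seq v4 kit, which is unstranded, per the labels' protocols. The authors deposited raw counts per gene. The submitters' processing notes name FastQC 0.11.5, STAR 2.7.10a, featureCounts, R 4.2.2 and mm10; settings are not given in the sources used here. Every sample column matched a title. The members and gene lists were chosen with earlier results of these data known. Counts were scaled by TMM, filtered with filterByExpr and fitted over all 7 groups with edgeR 4.0.16's robust quasi-likelihood test (R 4.3.3), with Benjamini-Hochberg adjustment over 13630 genes; called means an adjusted p under 0.05. The fit was tested on simulated data. Log2 CPM used a prior count of 2. Values in every library are printed for members called, for the 3 with the lowest p in each of 5 comparisons (mean log2 CPM of at least 1), and for Irf7, Isg15, Ifit1, Ifit3, Usp18, Bst2, Ifitm3 and Ly6a; 1 further gene of that rule is not reported here, and other members are given by ranges or group means. The results were recomputed with DESeq2 1.42.0, with limma 3.58.1 (voom, weighting libraries by quality), with either RLE or upper-quartile scaling, without the low-count filter or with one asking for 5 CPM in 3 libraries, with a replicate block, with the compared groups alone, and with each library left out. Library totals were 22010942 to 40233914 counts, and the limit that 0 reads allows (3 counts) covers counting error only. Times were processed in separate batches, so comparisons stay within a time. Positions are mm10, from GENCODE vM21, and levels per kilobase use its exon lengths.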

Additional observations from a re-analysis of the deposited data

Results flagged for a closer look

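Ifit1 in WT_2w 4 lay far below the other 3 WT libraries at 2 weeks. It had 20.3 CPM, or 4.35 on the log2 CPM scale, and the nearest library had 5.55. The gap was 0.905 of the group's whole range, above Dixon's 95% critical value for 4 libraries. It was the 1 group with such a gap of 76 examined, fewer than the 1 in 20 that chance gives. That critical value holds for groups of 4 libraries, the size at 2 weeks. The count therefore does not speak for the 4-week groups of 3 libraries, VF with VF_4w 6 among them. WT_2w 4 also held the lowest value of all 25 libraries for 7 of the 36 members.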

How the results depend on the processing

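Members called stayed at 0 in every setting except DESeq2, with 1 (Parp14) in Il1r1KO against VF at 4 weeks and 1 over both times, and the repeats that left out 1 library, where Il1bKO against VF at 4 weeks ranged from 0 to 1 (Parp9, without VF_4w 5, with 23 genes called in all). Leaving out 1 library moved the members' median between −0.56 and 0.19 for Il1bKO and between −0.66 and 0.13 for Il1r1KO at 4 weeks. Over both times it moved between −0.31 and 0.04 for Il1bKO and between −0.41 and 0.026 for Il1r1KO, and in the tests of time dependence between −0.45 and 0.33 for Il1b and between −0.59 and 0.17 for Il1r1. The lowest value in each case was without VF_4w 5 and the highest without VF_4w 6. With VF_4w 6 and Il1bKO_4w 5 both left out, a setting chosen after seeing the data, these medians were 0.18, 0.13, 0.012, 0.025, 0.24 and 0.17. Zbp1 in Il1bKO against VF at 4 weeks reversed, to 0.22 without VF_4w 6 (edgeR adjusted p = 0.894) and 0.71 with both left out (edgeR adjusted p = 0.535). Its planned repeats, which do not include the setting with both left out, ranged from −2.55 to 0.22. With limma voom and quality weights the median was −0.049 for Il1r1 by time and 0.01 for Il1b by time, and −0.10 and −0.21 for Il1bKO and Il1r1KO at 4 weeks; the cause was not tested. Counts over all genes depended on the tool: 17 as reported, 375 with DESeq2 and 0 with voom for Il1bKO against VF at 4 weeks, and 20, 230 and 406 for Il1r1KO. Over both times they were 19, 100 and 13 for Il1bKO and 23, 146 and 321 for Il1r1KO, and when fitting nothing but the 2 groups compared 0 and 1 at 4 weeks. The alternatives gave 1 to 8 genes for VF against WT, 0 to 15 and 2 to 21 for Il1bKO and Il1r1KO against VF at 2 weeks, 18 to 166 for Il1bKO against Il1r1KO, 3 to 24 and 3 to 46 against WT, and 0 to 51 and 0 to 22 by time. Replicate numbers did not pair libraries: the 33 same-number correlations of deviations ranged from −0.148 to 0.080, and 7 libraries correlated best with their own number. With the replicate block 0 members were called in each of the 12 comparisons, and 7 and 5 genes in all at 4 weeks for Il1bKO and Il1r1KO. Of 276 repeats of named members, 271 kept their direction and side of the threshold. None of the 15 pairs of member and comparison was called as reported, so staying uncalled with the same sign counts as kept. The tally does not measure size. Parp9 in Il1bKO against VF at 4 weeks went from −0.67 to −0.21 without VF_4w 6 and counts as kept. Ifit3 and Ifit3b had 0 reads in 1 library.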
